A study of Mus musculus with 4 samples.

Results

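This account follows 10 genes of transforming growth factor beta (TGF-β) production and reception, out of 31733 named genes, in stem cells of mouse skin squamous cell carcinoma. They were chosen by name: the ligand genes Tgfb1, Tgfb2, Tgfb3 and Inhba, the receptor genes Tgfbr1, Tgfbr2 and Tgfbr3, and the latency genes Ltbp1, Ltbp3 and Ltbp4. The tumours arose from skin epidermis of C57BL/6 X FBV mice whose labelled genotype, TetO-Hras together with LV-rtTA3-TGF-beta reporter, was carried by both groups. TetO-Hras places Hras, a driver of skin tumours, under a promoter that rtTA3 switches on with doxycycline. Tumour cells were depleted of other lineages, selected on integrin α6 and CD44 at their surface, and then divided by the mCherry signal of the TGF-β reporter. Experiments 1 and 2 each gave a reporter negative and a reporter positive library, so n = 2 per group. The reporter negative libraries are the control group and are labelled as lacking TGF-β signalling, and the positive ones as having it. Age, sex, doxycycline schedule and the number of tumours or animals per library are unknown from the labels. Any p-value below therefore reflects the spread among these 4 libraries, which may be technical.

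TGF-β ligands are secreted in a latent form. Their propeptide keeps the mature dimer inactive, and latent TGF-β binding proteins (LTBPs) tie that complex to the extracellular matrix until integrins, proteases or thrombospondin release it. The active ligand binds the type II receptor, which phosphorylates the type I receptor, which phosphorylates SMAD2 and SMAD3. In skin, TGF-β restrains keratinocyte proliferation, and carcinomas can escape this while still responding in other ways.

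Levels are FPKM, fragment numbers divided by transcript length and sequencing depth, so they can be compared between genes. They were summed over the transcript forms of a gene. Each change is the difference of log2(FPKM + 1), reporter positive minus reporter negative, with its SE; the added 1 understates the change of genes with low levels. They were tested with limma, and p-values were adjusted by Benjamini-Hochberg over all 12071 genes that reached 1 FPKM in 2 or more libraries. Bulk RNA cannot tell fewer cells of a type from less RNA per cell.

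The libraries held 3.13 to 3.75 gigabases of aligned sequence. Of 12071 genes, 664 passed an adjusted p of 0.05, 327 higher and 337 lower in reporter positive cells. The median change of all genes was -0.18. Median-of-ratios scaling moved it to 0.03 and the split to 487 higher and 223 lower, and quantile normalization gave 451 and 266. Among 13 markers of the sorted carcinoma cells the summed level was 5288.8 and 5379.0 FPKM in the negative libraries and 7065.7 and 7358.2 FPKM in the positive ones. None of the 13 was listed at 0. Perp and Sfn carried the higher sum: the other 11 summed to 2098 and 2456 FPKM in the negative libraries and to 1464 and 1712 FPKM in the positive ones. Col17a1, a hemidesmosome collagen of basal keratinocytes, was lower by the test. With the experiment as a block Itga6, which encodes the integrin of the sort, Itgb4, Epcam and Trp63 were lower too, and Perp and Sfn higher. Itga6 stood at 331 and 410 FPKM in the negative libraries and at 181 and 205 FPKM in the positive ones. Cd44, which encodes the other protein of the sort, stood at 81.5 and 112 FPKM in the negative libraries and at 88 and 128 FPKM in the positive ones. Its change was 0.15 (limma adjusted p = 0.758). Dsp and Cdh1, also among those 11, had changes of 0.48 and 0.24 and did not pass. The part of these differences in the results below was not tested.

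Of the 10 genes, 9 reached the level needed for the test, and Tgfbr3 did not. Of these 9, Tgfb3 alone passed, lower in reporter positive cells, where 2.79% of all genes passed as lower. None passed as higher (2.71% of all genes), and none was higher at an unadjusted p under 0.05 (7.58% of all genes). At that unadjusted threshold 6 of 9 were lower, against 18.3% of all genes. Tgfb3 was again the single gene to pass after median-of-ratios scaling, where 1.85% of all genes passed as lower and 4.03% as higher, and after quantile normalization, where these were 2.2% and 3.73%. Both positive libraries lay below both negative ones for 6 of the 9, as for 42.8% of all genes, and above them for Inhba alone, as for 15.2%. In both experiments 8 of the 9 were lower, against 54.5% of all genes, and Inhba was higher, against 20.7%. The median change of the 9 was -0.75, or -0.52 after median-of-ratios scaling, beside the medians of all genes above. With the experiment as a block, 4 of the 9 passed as lower (Tgfb2, Tgfb3, Ltbp1 and Ltbp4), where 7.75% of all genes did, and again none as higher (4.62%). In the 4 fits that left out a library the median change of the 9 ran from -0.96 to -0.66, beside -0.24 to -0.14 for all genes.

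**Figure D1:**
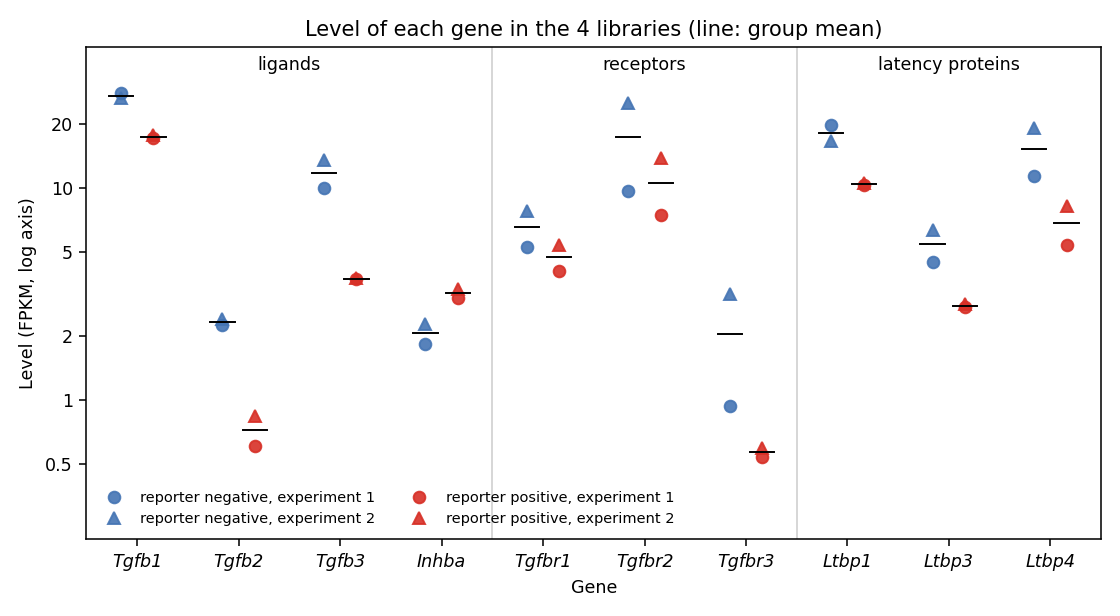
Level of each of the 10 genes in FPKM (log axis) in the 2 reporter negative (blue) and 2 reporter positive (red) libraries. Circles are experiment 1, triangles experiment 2, and lines the group means. The red points lie below the blue ones for Tgfb1, Tgfb2, Tgfb3, Tgfbr3 and the 3 Ltbp genes, above them for Inhba, and among them for Tgfbr1 and Tgfbr2.

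Among the ligands, Tgfb3 fell by 1.42 on the log2 scale and the other ligands did not pass. Tgfb3 (mm9 chr12:87397694-87419991, minus strand) encodes TGF-β3, an isoform known from palate fusion and wound repair. It stood at 9.99 and 13.5 FPKM in the negative libraries of experiments 1 and 2 and at 3.70 and 3.77 FPKM in the positive ones. The positive libraries were nearly equal, and both were well below the lower negative library. Their mean was 31.7% of the negative mean, and the change was -1.42 ± 0.21 (SE, limma adjusted p = 0.0362), with -1.23 in experiment 1 and -1.61 in experiment 2. The call did not hold in the fits that left out a library, where adjusted p ran from 0.0596 to 0.211, but the change stayed between -1.22 and -1.62.

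Nearly all Tgfb3 signal lay on its single reference transcript. Positive replicate 2 alone also held an assembled form that starts further in, at 0.913 FPKM, beside 2.86 FPKM on the reference transcript. The genes whose pattern over the 4 libraries was most like that of Tgfb3 were Ctnnal1, Plod1 and Lifr, with root mean square distances of 0.0258, 0.0496 and 0.0529 on the centred log2 scale, out of 11618 genes above 0 in every library. Ctnnal1 encodes an α-catenin relative and stood at 25.3 and 33.5 FPKM in the negative libraries and 9.79 and 10.5 FPKM in the positive ones. Plod1, a collagen lysyl hydroxylase, and Lifr, the leukaemia inhibitory factor receptor, followed the same order of libraries as Ctnnal1. Lifr stood at 1.7 and 2.6 FPKM in the negative libraries and at 0.0977 and 0.236 FPKM in the positive ones. At such low levels its likeness to Tgfb3 depends on the added 1, and it entered the test through its negative libraries alone. These 3 were picked for this likeness, so it is a description.

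Tgfb1 (mm9 chr7:26472021-26490096, plus strand), the most widely expressed isoform, had the highest level of the 10 genes in both groups. It stood at 28 and 26.4 FPKM in the negative libraries and at 17.2 and 17.7 FPKM in the positive ones. The groups did not overlap, and the positive mean was 64.1% of the negative one. The change of -0.61 ± 0.14 did not pass (limma adjusted p = 0.0781), nor did it with the experiment as a block. Relative to the shift of all genes it was smaller, -0.39 after median-of-ratios scaling.

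The Tgfb1 level was split between a pair of first exons. The reference form, with the upstream first exon, stood at 15.7 and 19.4 FPKM in the negative libraries and at 12.9 and 12.5 FPKM in the positive ones. An assembled form with a first exon that begins further downstream, at position 26473946, was found in all 4 libraries, at 12.4 and 6.97 FPKM in the negative ones and at 4.27 and 5.17 FPKM in the positive ones. For both forms the groups did not overlap. The downstream form made up 44.0% of the gene's level in negative replicate 1 and 24.8% to 29.3% in the other 3 libraries, so its share did not separate the groups.

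Tgfb2 (mm9 chr1:188446678-188530089, minus strand), an isoform of epithelial and mesenchymal development, was the least abundant of the 3 TGF-β genes. It stood at 2.26 and 2.42 FPKM in the negative libraries and at 0.604 and 0.837 FPKM in the positive ones. The groups were apart in both experiments, with the positive mean at 30.8% of the negative one. The change was -0.96 ± 0.20 (limma adjusted p = 0.0653), and it passed with the experiment as a block (limma adjusted p = 0.0449). Tgfb2 entered the test through its negative libraries alone, since both positive ones were below 1 FPKM, and its calls rest on that. Forms that keep an 84-base exon of the propeptide region, a multiple of 3, stood at 0.971 and 1.31 FPKM in the negative libraries and at 0.357 and 0.221 FPKM in the positive ones. The form without it was found in experiment 2 alone, at 1.11 and 0.379 FPKM in the negative and the positive library.

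The summed level of the 3 TGF-β genes was 40.3 and 42.3 FPKM in the negative libraries and 21.5 and 22.3 FPKM in the positive ones. The sums were close within each group and far apart between groups. Tgfb1 made up 69.6% and 62.3% of the sum in the negative libraries and 80.0% and 79.3% in the positive ones. Tgfb3 made up 24.8% and 32.0% in the negative libraries and 17.2% and 16.9% in the positive ones. The ratio of Tgfb3 to Tgfb1 was accordingly 0.356 and 0.513 in the negative libraries and 0.215 and 0.214 in the positive ones.

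**Figure D2:**
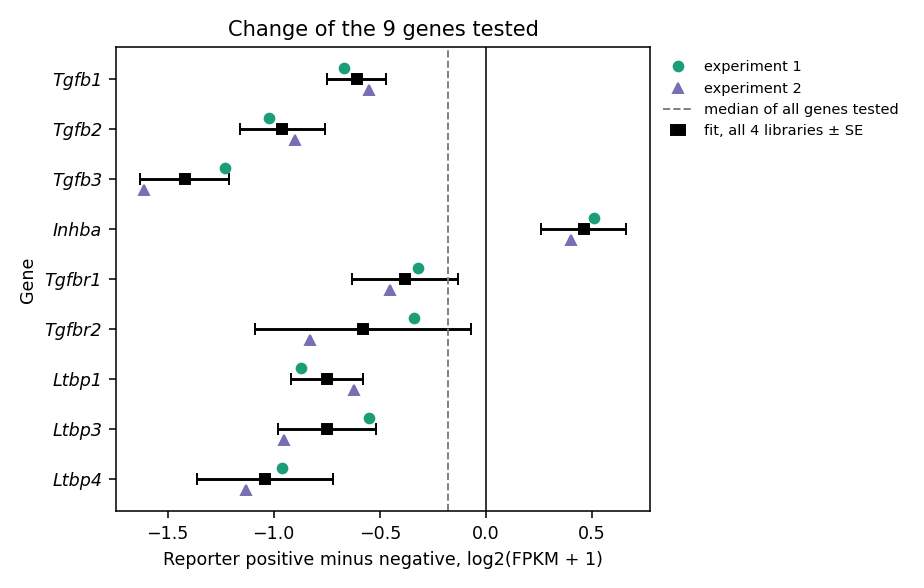
Change of each of the 9 tested genes, as the difference of log2(FPKM + 1), reporter positive minus reporter negative. Squares with bars are the limma estimate ± SE over all 4 libraries, circles experiment 1 and triangles experiment 2; the dashed line is the median of all genes tested, -0.18. Tgfb3 lies furthest to the left, at -1.42, and Inhba alone lies right of 0, at 0.46.

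Inhba (mm9 chr13:16103684-16123440, plus strand) encodes the βA subunit of activin A, which signals through its own receptors to the same SMADs. It was the single gene of the 9 that stood higher in reporter positive cells, at 3.03 and 3.34 FPKM, against 1.83 and 2.28 FPKM in the negative libraries. The groups did not overlap, but the change of 0.46 ± 0.20 did not pass (limma adjusted p = 0.233). After median-of-ratios scaling it was 0.63.

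Where forms are summed per gene, this direction depends on how assembled forms are assigned. In the positive libraries all of the Inhba level lay on assembled forms whose last exon ran 4395 and 4396 bases past the end of the reference transcript, so that only 23.6% to 27.9% of their length fell in reference exons. In the negative libraries that same stretch was listed as separate forms without strand, at 2.13 and 2.41 FPKM. Forms were assigned here by a shared splice junction first. Assigned by exon overlap of at least 50% alone, Inhba was listed at 0 in both positive libraries, and the change became -1.61 (limma adjusted p = 0.0272). Inhba and Tgfb3 then passed as lower, where 2.72% of all genes did, and none of the 9 as higher (2.68%). No other of the 10 genes moved between these assignments, and 125 of the genes tested were lifted from 0 by the splice junctions. Averaged over the reference exon bases of Inhba, where no assembled form is assigned to a gene, the change was 0.42 (limma adjusted p = 0.217). That setting too was chosen after the values were seen.

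**Figure D3:**
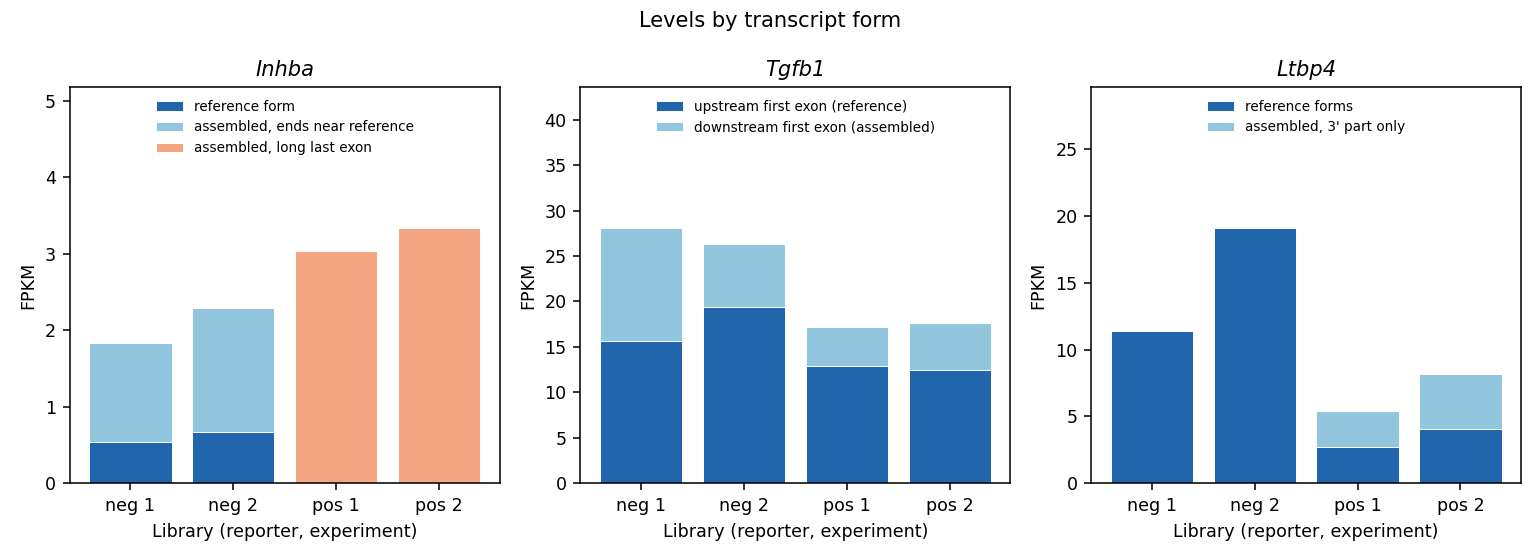
FPKM by transcript form, stacked, for Inhba, Tgfb1 and Ltbp4 in the negative (neg) and positive (pos) libraries of experiments 1 and 2. The positive libraries hold Inhba only as forms with a long last exon, Tgfb1 shows both first exons in all 4 libraries, and Ltbp4 shows forms of its 3′ part in the positive libraries alone.

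Neither signalling receptor passed the test, and forms of Tgfbr2 that lack exon 5 were listed in experiment 2 alone. Tgfbr1 (mm9 chr4:47366052-47427803, plus strand) encodes the type I receptor kinase. It stood at 5.28 and 7.74 FPKM in the negative libraries and at 4.05 and 5.38 FPKM in the positive ones. The groups overlapped, and the positive library was the lower of the pair in each experiment, by 0.32 and 0.45 on the log2 scale. The change was -0.38 ± 0.25 (limma adjusted p = 0.397). With reference transcripts alone its sign turned, to 0.64 (limma adjusted p = 0.765).

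The forms of Tgfbr1 differ in a 12-base stretch at the start of exon 3 of ENSMUST00000007757 (mm9 chr4:47406119-47406130). The stretch is shown because it decides which transcript a read is counted for; capitals mark the 12 bases that this form keeps and ENSMUST00000044234 leaves out. The sequence is that of GENCODE on GRCm38, chr4:47393247-47393286, plus strand, 5′ to 3′.
Tgfbr1 exon 3 start: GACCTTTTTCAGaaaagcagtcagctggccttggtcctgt
ENSMUST00000007757 was listed at 0 and 5.40 FPKM in the negative libraries and stood at 2.52 and 3.43 FPKM in the positive ones. Assembled forms with all 9 exons that leave the 12 bases out stood at 3.84 and 2.33 FPKM in the negative libraries and at 1.53 FPKM in positive replicate 1, and none was listed in positive replicate 2. The reference form was thus 69.9% and 62.2% of these full-length forms in negative replicate 2 and positive replicate 1, none of them in negative replicate 1 and all of them in positive replicate 2. Shorter assembled forms that start inside the gene stood at 1.44 FPKM in negative replicate 1, where the form keeps the 12 bases, and at 1.95 FPKM in positive replicate 2, where it starts after them. Its change of 0.64 (limma adjusted p = 0.812 over 14354 transcripts) had opposite signs in the experiments, 1.81 and -0.53. None of the other 4 Ensembl transcripts of Tgfbr1 was above 0 in any library.

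Tgfbr2 (mm9 chr9:115993415-116084792, minus strand) encodes the type II receptor kinase, which binds the ligand first. It stood at 9.62 and 25.2 FPKM in the negative libraries and at 7.42 and 13.8 FPKM in the positive ones. In these levels summed over forms the 2 experiments were further apart than the reporter states, and the groups overlapped. The change was -0.58 ± 0.51 (limma adjusted p = 0.521), with -0.34 in experiment 1 and -0.83 in experiment 2. Without negative replicate 2 it was 0.07. Averaged over the gene's reference exon bases, the change over all 4 libraries was again -0.58, with a smaller SE of 0.24 (limma adjusted p = 0.203). The ratio of Tgfbr2 to Tgfbr1 was 1.82 and 3.26 in the negative libraries and 1.83 and 2.55 in the positive ones, so it too followed the experiment.

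The excess of Tgfbr2 in experiment 2 lay on forms that leave out exon 5 of ENSMUST00000061101, an exon of 800 bases (mm9 chr9:116018622-116019421) that encodes part of the kinase domain. Its length is not a multiple of 3, with a remainder of 2. The junctions are shown to set the usual joins beside the join of the shortened forms, from GENCODE on GRCm38, 5′ to 3′, with 20 bases on each side and capitals for the downstream exon.
Tgfbr2 exon 4 to exon 5: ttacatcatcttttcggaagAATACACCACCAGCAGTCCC
Tgfbr2 exon 5 to exon 6: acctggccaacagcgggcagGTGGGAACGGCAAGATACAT
Tgfbr2 exon 4 to exon 6: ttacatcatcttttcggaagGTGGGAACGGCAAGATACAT
Forms that join exon 4 to exon 6 stood at 18.9 FPKM in negative replicate 2 and at 10.8 FPKM in positive replicate 2. None was listed in experiment 1. Forms with exon 5 stood at 9.62 and 6.33 FPKM in the negative libraries and at 7.42 and 2.95 FPKM in the positive ones. They were all of the level in experiment 1 and 25.1% and 21.4% of it in the negative and the positive library of experiment 2. All of the shortened forms were assembled from the reads and are not in the reference, and they also end inside the last exon, so exon 8 too was covered in part only.

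The 2 reference transcripts of Tgfbr2 are told apart by exon 2, of 75 bases, which lengthens the extracellular part of the receptor in frame. It is shown whole because the single-transcript values turn on it, from GENCODE on GRCm38, chr9:116158271-116158345, minus strand, 5′ to 3′, all in capitals as the stretch in question.
Tgfbr2 exon 2: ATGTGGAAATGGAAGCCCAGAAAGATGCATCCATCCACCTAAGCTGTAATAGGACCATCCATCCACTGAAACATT
ENSMUST00000035014, without exon 2, stood at 6.61 FPKM in negative replicate 1, was listed at 0 in negative replicate 2, and stood at 3.82 and 2.95 FPKM in the positive libraries. ENSMUST00000061101, with exon 2, stood at 3.01 and 6.33 FPKM in the negative libraries and at 3.59 FPKM in positive replicate 1, and was listed at 0 in positive replicate 2. Each was thus listed at 0 in a library of experiment 2, and for both the groups overlapped. Neither passed, with changes of 0.66 (limma adjusted p = 0.825) and -1.34 (limma adjusted p = 0.551). Of all transcripts tested, 0.237% passed as lower and 0.334% as higher. Over all forms, exon 2 was kept in 31.3% and 25.1% of the level in the negative libraries and in 48.5% and 78.6% in the positive ones. Those shares did not overlap, and they had no test of their own. In experiment 2 they turned on the shortened assembled forms, which lacked exon 2 in negative replicate 2 (18.9 FPKM) and kept it in positive replicate 2 (10.8 FPKM). The reference transcripts went the other way there, with exon 2 in negative replicate 2 (6.33 FPKM) and without it in positive replicate 2 (2.95 FPKM). The shares of experiment 2 thus depend on how the shortened forms were assembled.

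**Figure D4:**
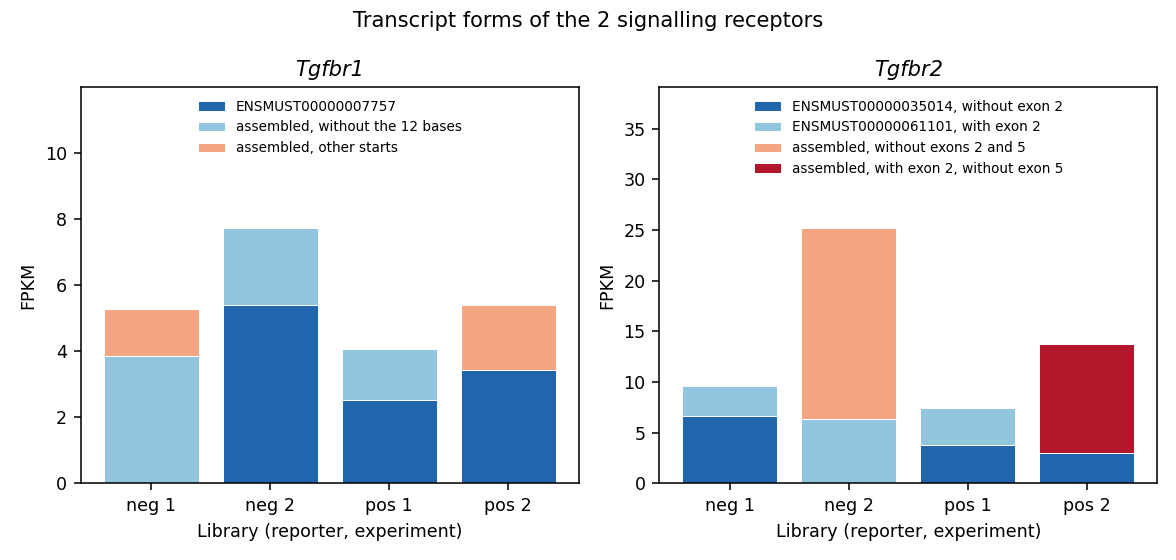
FPKM by transcript form, stacked, for Tgfbr1 and Tgfbr2 in the negative (neg) and positive (pos) libraries of experiments 1 and 2. Forms of Tgfbr2 without exon 5 appear in experiment 2 alone, at 18.9 FPKM (neg 2) and 10.8 FPKM (pos 2).

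Tgfbr3 (mm9 chr5:107535589-107718648, minus strand) encodes betaglycan, a co-receptor that presents TGF-β2 to the type II receptor. It stood at 0.938 and 3.16 FPKM in the negative libraries and at 0.540 and 0.596 FPKM in the positive ones, so only negative replicate 2 reached 1 FPKM and it was not tested. Both positive libraries lay below both negative ones. Unnamed forms on the opposite strand overlapped its exons in negative replicate 1 and positive replicate 2, and without strand their reads cannot be told apart.

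The 3 latency genes stood lower in every positive library than in either negative one, and none passed in the test with all 4 libraries and no block. Ltbp1 (mm9 chr17:75404908-75791852, plus strand) encodes the binding protein that anchors latent TGF-β1 in fibrillin-rich matrix. It stood at 19.7 and 16.6 FPKM in the negative libraries and at 10.3 and 10.5 FPKM in the positive ones. The positive mean was 57.2% of the negative one, with little spread between the positive libraries. The change was -0.75 ± 0.17 (limma adjusted p = 0.0746), and it passed with the experiment as a block (limma adjusted p = 0.0494). It also passed, without the block, in the fit on genes above 0 in every library (limma adjusted p = 0.0474).

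Ltbp1 is read from a pair of distant starts that give a long and a short protein. The 250 bases before each start are shown so that the starts behind the 2 sets of values can be compared, from RefSeq on GRCm38.p6, chr17:75005279-75005528 and chr17:75178531-75178780, plus strand, 5′ to 3′, with capitals for a CRE (TGACGTCA, the cAMP response element).
Ltbp1 upstream start: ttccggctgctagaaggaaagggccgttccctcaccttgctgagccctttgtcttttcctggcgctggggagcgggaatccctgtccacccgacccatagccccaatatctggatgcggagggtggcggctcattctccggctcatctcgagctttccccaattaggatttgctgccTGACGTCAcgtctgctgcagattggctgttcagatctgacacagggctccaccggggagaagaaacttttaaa
Ltbp1 downstream start: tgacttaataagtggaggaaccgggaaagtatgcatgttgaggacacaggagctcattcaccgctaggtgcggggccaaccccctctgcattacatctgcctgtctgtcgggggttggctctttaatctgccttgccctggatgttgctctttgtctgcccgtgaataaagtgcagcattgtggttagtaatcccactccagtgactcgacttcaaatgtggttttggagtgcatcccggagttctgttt
The RefSeq starts are 173252 bases apart, and those of the files 173160 to 173343. The long form stood at 2.20 and 3.94 FPKM in the negative libraries and at 1.25 and 1.44 FPKM in the positive ones. The short forms stood at 13.8 and 12.7 FPKM in the negative libraries and at 9.05 and 9.03 FPKM in the positive ones. Both sets were lower in sum in every positive library, and the short forms were the larger share everywhere, 70.1% to 87.8%. Of the short forms, ENSMUST00000112514 stood at 11.3 and 10 FPKM in the negative libraries and at 6.04 and 6.35 FPKM in the positive ones. ENSMUST00000112516, or in negative replicate 2 an assembled form with its introns, was not lower. It stood at 2.49 and 2.63 FPKM in the negative libraries and at 3.01 and 2.67 FPKM in the positive ones. Negative replicate 1 alone also held a form of the last exons, at 3.68 FPKM. Both strands of 32851 promoter windows of 300 bases were searched, 12 of them from 8 of the 10 genes. Tgfb3, the gene that passed, and Tgfbr3 had no window, so their promoters were not searched. The CRE was in 1.79% of all windows and among the 12 in that of the upstream Ltbp1 start only. The SMAD palindrome GTCTAGAC was in 0.213% of all windows and in none of the 12. The shorter SMAD site CAGAC, which that palindrome does not contain, was in 49.6% of all windows and in 6 of the 12. The AP-1 site TGANTCA was in 7.81% of all windows and among the 12 in that of Ltbp3. The TATA box TATAAA was in 13.6% and among the 12 in those of Inhba and Tgfb2, and the GC box GGGCGG was in 35.7% and in 5 of the 12, from Ltbp4, Tgfb1 and Tgfbr1.

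Ltbp4 (mm9 chr7:28090155-28122711, minus strand) encodes a binding protein that takes part in elastic fibre assembly. It stood at 11.4 and 19.1 FPKM in the negative libraries and at 5.40 and 8.19 FPKM in the positive ones. The groups did not overlap, and the positive mean was 44.5% of the negative one. The change was -1.04 ± 0.32 (limma adjusted p = 0.13), and it passed with the experiment as a block (limma adjusted p = 0.0268). The full-length transcript ENSMUST00000121175 differed more, at 11.4 and 19.1 FPKM in the negative libraries and 2.29 and 4.04 FPKM in the positive ones. Assembled forms of the 3′ part, at 2.69 and 4.15 FPKM, were listed in the positive libraries alone. Averaged over the gene's reference exon bases in place of summed over forms, the change was -1.56 (limma adjusted p = 0.0449).

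Ltbp3 (mm9 chr19:5740904-5758532, plus strand) encodes a binding protein with a known part in bone and tooth enamel. It stood at 4.48 and 6.36 FPKM in the negative libraries and at 2.75 and 2.82 FPKM in the positive ones. Both positive libraries were below both negative ones, with a mean of 51.4% of the negative mean. The change of -0.75 ± 0.23 did not pass (limma adjusted p = 0.128).

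Together the 3 Ltbp genes summed to 35.6 and 42.1 FPKM in the negative libraries and to 18.5 and 21.5 FPKM in the positive ones. Ltbp1 and Ltbp4 traded places within the negative group, at 55.3% and 32.1% of the sum in replicate 1 and 39.5% and 45.4% in replicate 2. In the positive libraries Ltbp1 was the larger in both, at 55.8% and 48.7%.

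By mean level in reporter negative cells, Tgfb1 (27.2 FPKM) was followed by Ltbp1, Tgfbr2, Ltbp4 and Tgfb3, then Tgfbr1 and Ltbp3, then Tgfb2, Inhba and Tgfbr3. Neighbours within each of those runs overlapped, and neighbours across the breaks did not. In reporter positive cells Tgfb1 (17.4 FPKM) was followed by Tgfbr2 and Ltbp1, which overlapped, and then, with no overlap between neighbours, by Ltbp4, Tgfbr1, Tgfb3, Inhba, Ltbp3, Tgfb2 and Tgfbr3. Tgfb3 stood above Tgfbr1 in the negative group and below it in the positive one. The place of Inhba above Ltbp3 in reporter positive cells holds for the assignment by splice junction; by exon overlap alone Inhba, listed at 0 there, would come last.

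Among 57 other genes of the pathway, grouped by role, 2 passed, both lower and both activators of the latent complex. Of the 57, 42 were tested, 2 were lower, where 2.79% of all genes were, none was higher (2.71%) and 40 did not pass. At an unadjusted p under 0.05, 14 were lower, against 18.3% of all genes, and none higher, against 7.58%. With the experiment as a block 9 passed as lower, against 7.75% of all genes. The median change was -0.42, or -0.23 after median-of-ratios scaling. In both experiments 27 of the 42 were lower, against 54.5% of all genes, and 3 higher, against 20.7%.

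Thbs1, thrombospondin 1, which can free TGF-β from its propeptide, stood at 27.3 and 41.1 FPKM in the negative libraries and at 6.29 and 8.14 FPKM in the positive ones. It fell by 2.08 on the log2 scale (SE 0.25, limma adjusted p = 0.0249). Bmp1, a protease that cleaves LTBP1 and procollagens, stood at 31.6 and 37.4 FPKM in the negative libraries and at 13.3 and 14.8 FPKM in the positive ones. It fell by 1.24 (SE 0.16, limma adjusted p = 0.0297). Both had groups far apart, and neither passed in the fits that left out a library, with limma adjusted p from 0.053 to 0.101 for Thbs1 and from 0.0676 to 0.163 for Bmp1.

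The 6 genes with the smallest p among the rest had lower values in both positive libraries than in both negative ones and did not pass. With the experiment as a block 4 of them passed: Cd109 (limma adjusted p = 0.0156), Mmp2 (0.0197), Tgif1 (0.0249) and Fkbp1a (0.0354). Fkbp1a, whose protein FKBP12 binds the type I receptor and holds it inactive, stood at 63.1 and 63.6 FPKM in the negative libraries and at 37.9 and 41.4 FPKM in the positive ones (limma adjusted p = 0.0585). Mmp2, a gelatinase, stood at 6.11 and 8.55 FPKM against 1.46 and 2.89 FPKM (limma adjusted p = 0.0717). Pmepa1, a SMAD target that limits SMAD signalling in turn, stood at 42.9 and 33.4 FPKM against 20.5 and 23.0 FPKM (limma adjusted p = 0.0817). These 3 act at the receptor, in the matrix and in the cell. Cd109, a TGF-β co-receptor of keratinocytes, had a change of -1.30 (limma adjusted p = 0.101). Fstl3, which binds activin, and Tgif1, a SMAD co-repressor, had changes of -0.67 and -0.87 (limma adjusted p = 0.111 for both).

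By role, none of the 7 signal transducers, 9 intracellular inhibitors, 5 extracellular antagonists, 5 tested receptors, 2 tested latency proteins and 1 tested ligand passed. At an unadjusted p under 0.05, those roles held 1, 2, 2, 1, 1 and 0 genes, all lower, where 18.3% of all genes were lower. The latency protein among them entered the test through its negative libraries alone, and its count rests on that. The median of the signal transducers, which include Smad2, Smad3 and Smad4, was -0.13 and turned to 0.08 after median-of-ratios scaling. That of the 13 tested activators was -0.58 and stayed below 0, at -0.36.

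**Figure D5:**
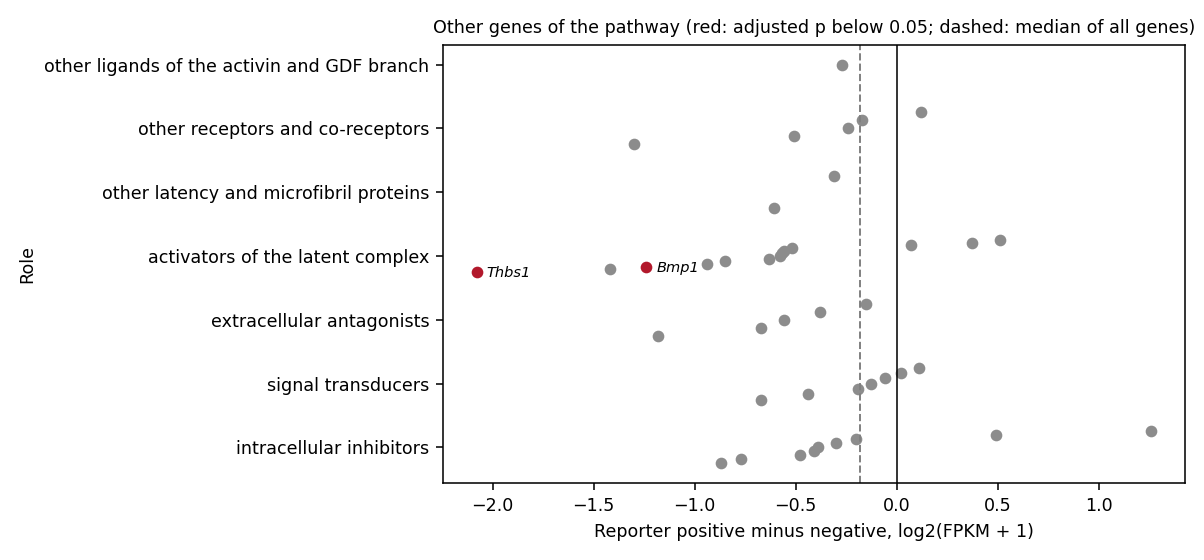
Change of the 42 tested genes of the pathway list, as the difference of log2(FPKM + 1), reporter positive minus reporter negative, by role. Each point is a gene, red where the limma adjusted p was below 0.05, and the dashed line is the median of all genes, -0.18. The red points, Thbs1 at -2.08 and Bmp1 at -1.24, are both activators of the latent complex.

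Markers of other cell types also differed between the libraries, and their part in these results was not tested. The 9 fibroblast markers summed to 66.6 and 84.5 FPKM in the negative libraries and 39.6 and 54.8 FPKM in the positive ones, led by Fbln1, Col3a1 and Col1a2, with none at 0. None of the 7 tested passed with limma, and 3 were lower at an unadjusted p under 0.05. With the experiment as a block Col1a2 passed as lower (limma adjusted p = 0.0445). The 8 pericyte and smooth muscle markers summed to 37.6 and 34.5 FPKM and to 20.2 and 21.3 FPKM, led by Acta2, Notch3 and Cspg4. Acta2 carried much of this, at 25.7 and 22.7 FPKM in the negative libraries and 11 and 11.1 FPKM in the positive ones. Notch3 went the other way, at 8.02 and 5.62 FPKM in the negative libraries and 8.27 and 8.62 FPKM in the positive ones. Among the 8, Acta2 was lower (limma adjusted p = 0.0339), as was Cspg4 with the block (limma adjusted p = 0.0267), and Tagln was listed at 0 everywhere. Cspg4 stood at 1.5 and 3.4 FPKM in the negative libraries and at 0.114 and 0.597 FPKM in the positive ones. It entered the test through its negative libraries alone, and its call rests on that. The sums of both lists were lower in the positive libraries, as were the ligand and Ltbp sums.

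Negative replicate 2, which had the highest Tgfbr2, Tgfbr3 and Ltbp4, also had the highest sum of endothelial markers. The 9 endothelial markers, led by Tie1, Pecam1 and Esam, summed to 12.6 and 20.3 FPKM in the negative libraries and to 12 and 10.6 FPKM in the positive ones. Tie1 went against the rest: the other 8 summed to 7.48 and 16.5 FPKM in the negative libraries and to 3.98 and 4.25 FPKM in the positive ones. None of the 4 tested passed with limma, and 2 were lower at an unadjusted p under 0.05. Those 2 entered the test through their negative libraries alone, since both positive ones were below 1 FPKM. Without negative replicate 2 the median change of the 9 genes was -0.66, beside -0.14 for all genes, and 7 of them kept a lower level. The sum of the other 8 endothelial markers was also higher in negative replicate 1 than in either positive library. Its part in these changes was not tested. The 10 leukocyte markers, led by Cd14, Cd68 and Lyz2, summed to 13.5 and 13.2 FPKM and to 16.3 and 27.4 FPKM. None of the 5 tested passed with limma, and 2 were higher at an unadjusted p under 0.05. At that threshold 18.3% of all genes were lower and 7.58% higher. The 6 melanocyte markers, led by Mlana, Mitf and Dct, stayed at or below 1.56 FPKM in sum, with Pmel at 0.

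Markers of differentiating keratinocytes moved the other way. The 9 summed to 514 and 273 FPKM in the negative libraries and to 3547.3 and 3569.8 FPKM in the positive ones, led by Sprr1a, Tgm3 and Cnfn. Of 8 tested, 6 were higher, none lower. FPKM is relative to all RNA of a library, and the part of this difference in the results above was not tested.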

How the data were processed

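Messenger RNA libraries (Illumina mRNA kit, per the labels' protocols) were grouped by the reporter state and experiment in their titles. Per the submitters' processing notes, the authors used TopHat and Cufflinks with build mm9. Versions, strand setting and read length: not given in the sources used here. Deposited tables hold FPKM, its interval and coverage per transcript, per the file headers. Depth was taken from the ratio of coverage to FPKM, as aligned bases, and limits precision.

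GENCODE M21 (another build, used for names and exon sequences) named 84077 of 96734 reference transcripts, and the files' own gene identifiers 5109. The other ones, and assembled forms, went to the gene that shared a splice junction, then to the one whose exons held at least 50% of their length. Transcripts under 200 exonic bases were left out. This order of assignment was chosen after the values were seen, because exon overlap alone listed Inhba at 0 in 2 libraries. FPKM was summed per gene (Python 3.11.15, pandas 2.3.3). Genes reaching 1 FPKM in 2 or more libraries were tested on log2(FPKM + 1) with limma 3.58.1 (R 4.3.3, lmFit and eBayes with an intensity trend, two-sided). Adjustment was by Benjamini-Hochberg over all genes, with a threshold of 0.05; Ensembl transcripts were tested likewise. An exact permutation test of 2 against 2 cannot go below 0.333. The test was tested on simulated data. Of the genes tested, 453 were listed at 0 in some library, which can be a failed estimate.

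The titles number the experiment, which was taken as a shared batch; deviations from the group means of same-experiment libraries correlated across 11618 genes (r = 0.314; genes are not independent). The block was an alternative.

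The members and lists were chosen with earlier results of these data known. Named genes were the 10 genes, each Tgfbr1 and Tgfbr2 transcript above 0, pathway genes that passed and the 6 next by p, the 3 genes most like each gene that passed, and the 3 highest markers of each list. Results that need certain withheld items are not reported here.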

Additional observations from a re-analysis of the deposited data

Results flagged for a closer look

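The single transcripts of the receptors moved in opposite directions in the 2 experiments; with 1 library per reporter state in each experiment, the difference was not tested. For Tgfbr1 ENSMUST00000007757 the log2 difference, positive minus negative, was 1.81 in experiment 1 and -0.53 in experiment 2. For Tgfbr2 ENSMUST00000035014 it was -0.66 and 1.98. For Tgfbr2 ENSMUST00000061101 it was 0.20 and -2.87. In each case a library listed the transcript at 0 while an assembled form of the same gene held signal there.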

How the results depend on the processing

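The 664 genes that passed became 4 with no filter on low values, 1261 with genes listed at 0 left out, 1019 with robust variance estimation, 94 from reference transcripts alone and 321 when each gene was its most abundant transcript. With the replicate block (the experiment) 1494 passed, and 3317 with it and genes listed at 0 left out. Without single libraries 42 (without negative replicate 2) to 231 (without negative replicate 1) passed. For single transcripts 82 passed, against 20 with a pseudocount of 0.1, 7 with no filter, 37 with a filter of 5 FPKM, 219 with those listed at 0 left out and 187 with no intensity trend. With the replicate block 0 transcripts passed in limma (2257 at an unadjusted p under 0.05), and 333 with the block and those listed at 0 left out. Without single libraries the range was 0 to 0 (1415 to 2624 at an unadjusted p under 0.05).

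Of the 10 genes, 1 passed as reported. With no filter, reference transcripts only or the most abundant transcript 0 passed (6, 3 and 6 at an unadjusted p under 0.05), and without single libraries 0 to 0. With robust variance estimation, exon overlap only or averaging over reference exon bases 2 passed, the last 2 settings chosen after seeing the data. With genes listed at 0 left out 3 passed, with the replicate block 4, and with both 7. Of all genes, 779 of 11618, 936 of 12071 and 2365 of 11618 passed as lower in these settings. Robust variance estimation passed 596 of 12071 as lower, and averaging over reference exon bases 411 of 11918. At an unadjusted p under 0.05 were 3838 of 20124 genes with no filter, in either direction. Reference transcripts only gave 2040 of 11252, and the most abundant transcript 2474 of 11712. These counts of all genes also stand beside the pathway genes below. Of the other pathway genes, 2 passed as reported and 0 with no filter or reference transcripts only (17 and 9 at an unadjusted p under 0.05), 1 with the most abundant transcript, 4 with robust variance estimation, 6 with genes listed at 0 left out, 9 with the replicate block and 15 with both. Without single libraries the median change of the other pathway genes ran from -0.58 to -0.24, beside -0.24 to -0.14 for all genes. Every gene that passed in these settings was lower in reporter positive cells.

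Signs turned in 5 cases, and the cause was not tested except where named in the report. They were Inhba with exon overlap only (-1.61), Tgfbr1 with reference transcripts only (0.64), Tgfbr2 without negative replicate 2 (0.07, in a range from -1.23 to 0.07), ENSMUST00000007757 without negative replicate 1 (-0.70, from -0.70 to 1.98) and ENSMUST00000035014 without negative replicate 2 (-0.80, from -0.80 to 2.13). Fits without a library leave 1 in its group, assumed to vary as the opposite group does.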

Other observations

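Inha, the inhibin α subunit, which pairs with the product of Inhba to make inhibin A, was listed at 0 in both negative libraries and at 0.948 and 2.04 FPKM in the positive ones. It was not tested, since only 1 library reached 1 FPKM. It was named after its values were seen.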
